A study of Mus musculus with 6 samples.

Results

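Translation initiation factors were described here at the level of their mRNA in jejunal intestinal epithelial cells (IEC). The members are the genes whose symbol starts with Eif followed by a digit from 1 to 6, without the sex-linked pair Eif2s3x and Eif2s3y, which encode the third subunit of eIF2. The rule found 57 of the 19616 genes in the count table, of which 5 are processed pseudogenes and 3 are named for a factor but act elsewhere. RNA was sequenced from IEC of 3 control and 3 Hdac1/2-deleted mice, all 3 months old, with 1 library per mouse. The control mice, labelled wild-type, are C1, C3 and C3-3. The Hdac1/2-deleted mice, H1, H5 and H9, carry villin-Cre with both Hdac1 and Hdac2 deleted, so that the deletion is driven from the villin promoter in the intestinal epithelium and not in the other cells of the gut wall. The mice were bred on a mixed C57BL/6J, 129SV and CD1 background, and the epithelium was released from the jejunum with EDTA.

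Initiation is the step at which a ribosome is placed on an mRNA. The eIF2 complex brings the initiator tRNA to the small subunit, eIF1, eIF1A and eIF5 govern the choice of the start codon, and eIF3 is the large scaffold that holds the small subunit and the other factors together. The cap of the mRNA is bound by eIF4E, which with the scaffold eIF4G and the helicase eIF4A forms eIF4F. Control is exerted mainly at 2 points: 4E-binding proteins occupy eIF4E until the kinase complex mTORC1 phosphorylates them, and stress kinases phosphorylate eIF2 and so block its recharging by the exchange factor eIF2B. None of these phosphorylations can be seen in mRNA counts.

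RefSeq promoter windows of 300 bases (from upstream of an annotated start to just past it, GRCm38.p6) were matched to 41 of the 57 members, with 54 windows. Eif4ebp1, Eif4e3, Eif2b3 and Eif3i were among the members without a match. The canonical E-box CACGTG, the letters bound by Myc, Max and related factors, was among 5 motifs searched. Eif4e and Eif5a, which both rose at least 2-fold, each held 2 E-boxes. So did Eif4g1, with a log2 fold change of 0.46, and Eif5a2, which had too few counts to be tested. The stretches around the sites of Eif4e and Eif5a are given 5′ to 3′ on the strand of the gene, with the E-box in capitals.
Eif4e, 228 bases before the start, chr3:138527028-138527057, plus strand: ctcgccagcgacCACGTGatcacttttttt
Eif4e, 64 bases before the start, chr3:138527192-138527221, plus strand: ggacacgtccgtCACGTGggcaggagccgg
Eif5a, 74 bases before the start, chr11:69921443-69921472, minus strand: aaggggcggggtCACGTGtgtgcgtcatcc
Eif5a, 178 bases before a second start, chr11:69920791-69920820, minus strand: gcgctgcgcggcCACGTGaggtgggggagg
All of these stretches lie inside the annotated genes, past the 5′ ends at 138526179 (Eif4e) and 69921958 (Eif5a). The starts named with them are thus internal ones, and the most upstream window of each gene held no E-box. Both Eif4e stretches lie wholly within an exon of the GENCODE annotation, and 20 bases of the second Eif5a stretch do. The first Eif5a stretch lies within the gene but outside its annotated exons.

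The E-box, whose letters read the same on both strands, stood in 22.2% of the member windows and in 7.15% of all 32851 windows. It was found in 10 member genes, namely Eif1b, Eif3a, Eif3f, Eif3k, Eif4a1, Eif4e, Eif4g1, Eif4h, Eif5a and Eif5a2. Of the 9 that could be tested, 5 had increased expression and none had decreased expression, the median log2 fold change being 0.46. Of the 31 tested members whose windows lacked it, 14 increased and 3 decreased, and the median log2 fold change was 0.43. Members with and without the E-box letters thus had nearly the same median change. Of all tested genes, 20.5% increased and 20.3% decreased. The ETS core CCGGAAG, read on both strands, was present in 35.2% of member windows against 8.86% of all windows, and the GC box GGGCGG in 70.4% against 35.7%. Neither the cAMP response element TGACGTCA nor the C/EBP-ATF letters TGATGNAA, through which stress factors of the ATF family can act, was present in any member window, against 1.79% and 3.97% of all windows. These are matches of letters in short windows, which can overlap within a gene, and no binding was measured.

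Library totals ranged from 36111035 counts in H5 to 65902344 in C1, and levels are given as CPM, counts scaled to a common library total, on which 3 counts correspond to 0.0405 to 0.079 CPM in a library. Hdac1 expression was 34.5 to 48.8 CPM in control mice and 2.53 to 4.81 CPM in Hdac1/2-deleted mice, while Hdac2 counts overlapped between groups (log2 fold change -0.18). Counts are per gene, and the exons that the Hdac2 deletion removes are not given in the sources used here, so that value does not check the second deletion. The 20 most abundant genes took 16% to 19.2% of counts in control and 11.8% to 12.4% in Hdac1/2-deleted libraries. The 9 epithelial markers were abundant in all 6 libraries, with a summed level of 22580 to 25180 CPM in control and 16950 to 20090 CPM in Hdac1/2-deleted mice, and 3 of them decreased (Fabp2, Epcam and Krt20) while 1 increased (Alpi). Summed immune markers (8 of 9 tested, 2 lower) were at 49.7 to 146 CPM in control and 34.8 to 65.5 CPM in Hdac1/2-deleted mice, and stromal markers (5 of 6 tested, 1 lower, the muscle filament gene Des) at 3.41 to 22.3 and 3.63 to 8.87 CPM. C3 held 3987 counts over 16 Y-linked genes and the other libraries 309 to 590.

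Of the 57 members, 55 had enough counts to be tested with edgeR's quasi-likelihood test. Expression was increased in 25 (45.5%) and decreased in 4 (7.27%) at a Benjamini-Hochberg adjusted p of at most 0.05, where 20.5% of all tested genes increased and 20.3% decreased. With a change of at least 2-fold required as well, 4 members increased (Eif4ebp1, Eif2b3, Eif4e and Eif5a) and 1 decreased (Eif4e3), which is 7.27% and 1.82% against backgrounds of 12.4% and 12.7%. In 30 members all Hdac1/2-deleted mice were above all control mice and in 5 all were below, against 26.7% and 26.6% of genes tested. At the adjusted p limit alone a larger share of the factors than of all genes thus increased, and at 2-fold a smaller one. These shares are descriptions that were not tested against each other. Their median log2 fold change was 0.43, the median of all tested genes was -0.0081, and 42 of 55 members had a positive log2 fold change against 49.6% of all genes. Together the members took 5219 to 5650 CPM in control and 6498 to 7135 CPM in Hdac1/2-deleted mice, with no overlap. When library totals alone were used for scaling, the median of the members was 0.62 and that of all genes 0.18. Leaving out C3-3 reduced the count of increased members from 25 to 16. The share of all tested genes that increased fell from 20.5% to 16.7% in that fit.

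In bulk RNA, fewer cells of a type and less RNA per cell cannot be told apart, and this applies to every difference reported. Proliferating crypt cells are rich in translation machinery. Of 11 proliferation markers, 2 increased (Mcm2, by 1.02 on the log2 scale, and Mcm6, by 0.51) and none decreased. The share that increased was 18.2%, near the 20.5% of all tested genes. The median log2 fold change of the markers was 0.42. Their summed level overlapped between the groups (342 to 562 CPM in control and 383 to 596 CPM in Hdac1/2-deleted mice). The part of proliferation in the results on the factors was not tested.

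**Figure D1:**
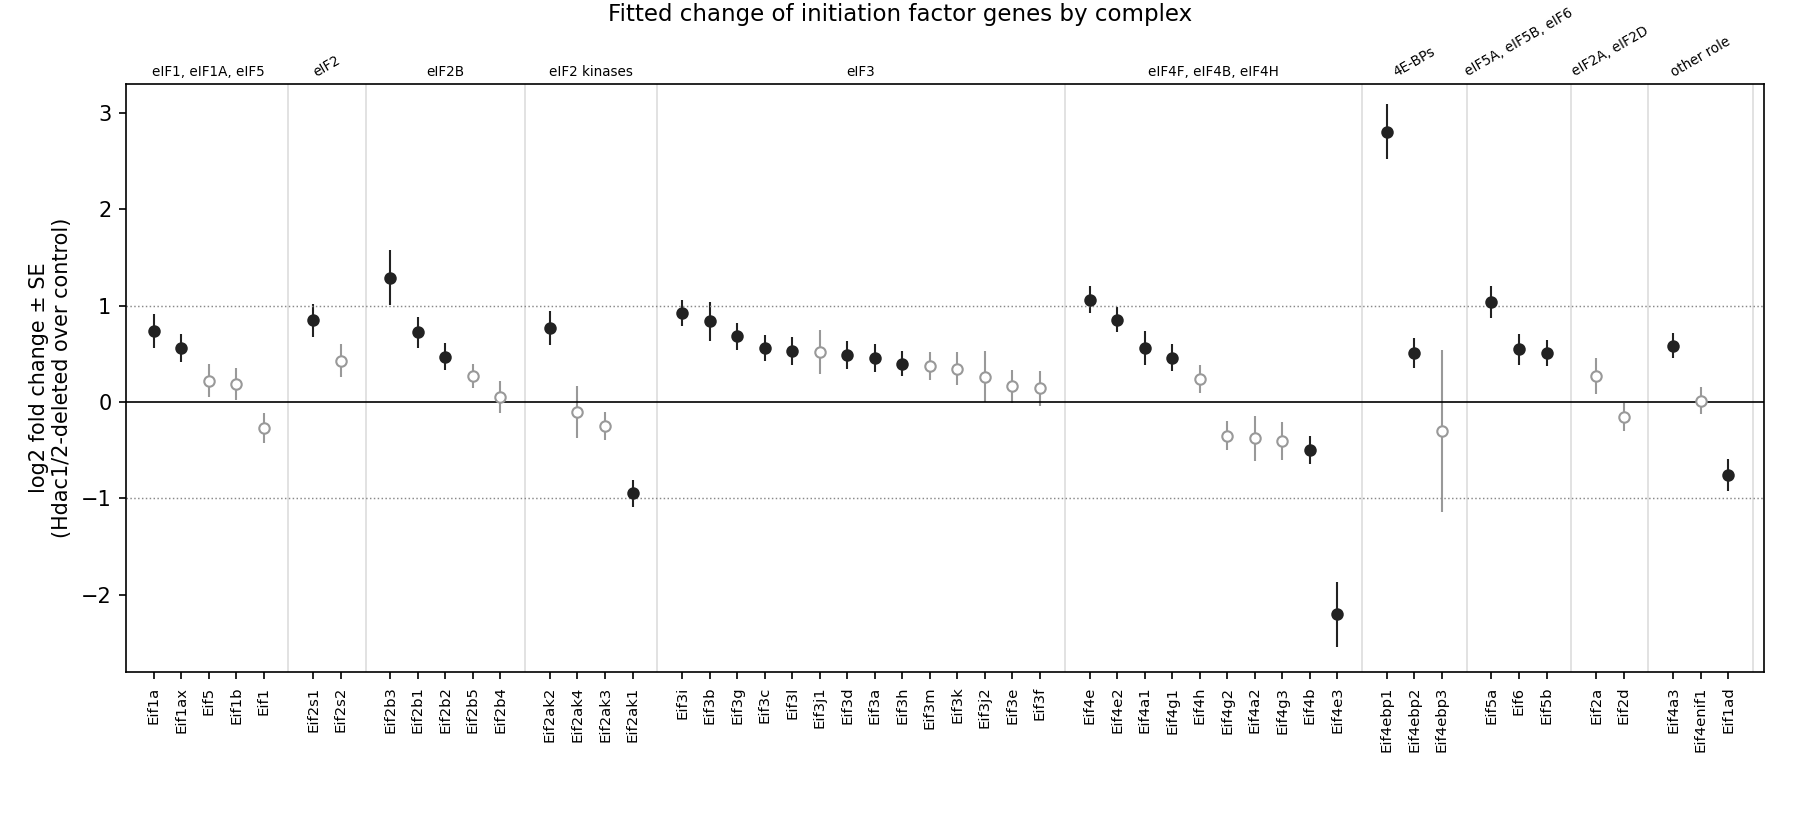
The log2 fold change of each tested factor gene (Hdac1/2-deleted over control, n = 3 mice per group) is plotted with its standard error, grouped by complex and ordered within each, with the tested pseudogenes left out. Filled points passed an adjusted p of 0.05, open grey points did not, and dotted lines mark a 2-fold change. All 14 eIF3 genes lie above 0, Eif4ebp1 stands apart at 2.81 and Eif4e3 at -2.20.

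The largest change among all members was that of Eif4ebp1 (ENSMUSG00000031490, chr8:27260329-27276674 on GRCm38, plus strand), which encodes 4E-BP1, the best known inhibitor of cap-bound eIF4E. Expression was 14.7, 7.36 and 16.9 CPM in C1, C3 and C3-3 and 95.3, 90.2 and 86.8 CPM in H1, H5 and H9. Every Hdac1/2-deleted mouse was thus far above every control mouse. The fitted log2 fold change was 2.81 ± 0.29 (SE, n = 3 mice per group), that is 7.0-fold, with an edgeR adjusted p of 1.7e-04. Leaving out each mouse in turn kept it between 2.53 and 3.05.

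The related Eif4ebp2, whose product binds eIF4E in the same way, rose more modestly, from 66.9, 60.0 and 68.5 CPM in control to 76.2, 107 and 95.2 CPM in Hdac1/2-deleted mice. Its log2 fold change was 0.51 ± 0.15 (edgeR adjusted p = 0.026). That call was lost with upper-quartile scaling and without C3, C3-3, H5 or H9, with adjusted p-values of up to 0.079. Eif4ebp3, the third inhibitor, did not pass the test (log2 fold change -0.30 ± 0.84, adjusted p = 0.81). It stood at 26.2, 2.14 and 23.4 CPM in the control mice and at 12.2, 11.6 and 18.3 CPM in the Hdac1/2-deleted mice. C3, with 119 counts against 1737 in C1 and 1246 in C3-3, lay far below every other library. Without C3 the log2 fold change of Eif4ebp3 was -0.82 (adjusted p = 0.025), and without C1 it was 0.14. The value thus depends on which control mice are included. The Y-linked counts of C3 given above set the same library apart, and whether that bears on Eif4ebp3 was not tested.

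Eif4e (ENSMUSG00000028156, chr3:138526179-138559696, plus strand) encodes the cap-binding protein that the 4E-BPs inhibit, and its expression also doubled. It was measured at 34.0, 30.3 and 29.9 CPM in control and at 72.6, 65.3 and 59.0 CPM in Hdac1/2-deleted mice. The groups were clearly apart, with a log2 fold change of 1.06 ± 0.14 (2.09-fold, edgeR adjusted p = 4.2e-04). Eif4e2, which encodes the 4EHP protein that binds the cap without forming eIF4F, increased with it, from 75.5, 79.1 and 69.2 CPM to 133, 146 and 126 CPM (log2 fold change 0.85 ± 0.13, adjusted p = 9.8e-04).

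Eif4e3 (ENSMUSG00000093661, chr6:99625135-99666771, minus strand), the third member of the cap-binding family, went the other way. Its expression was 4.59, 5.67 and 7.28 CPM in control and 1.78, 0.921 and 1.07 CPM in Hdac1/2-deleted mice. Every control mouse was above every Hdac1/2-deleted mouse, and expression fell by 2.20 on the log2 scale (SE 0.34, 4.60-fold lower, edgeR adjusted p = 0.0010). The gene rests on 35 to 387 counts per library. It shares 373 exon bases on the same strand with Gm20696, whose mean was 0.158 CPM in control and 0.0178 CPM in Hdac1/2-deleted mice.

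**Figure D2:**
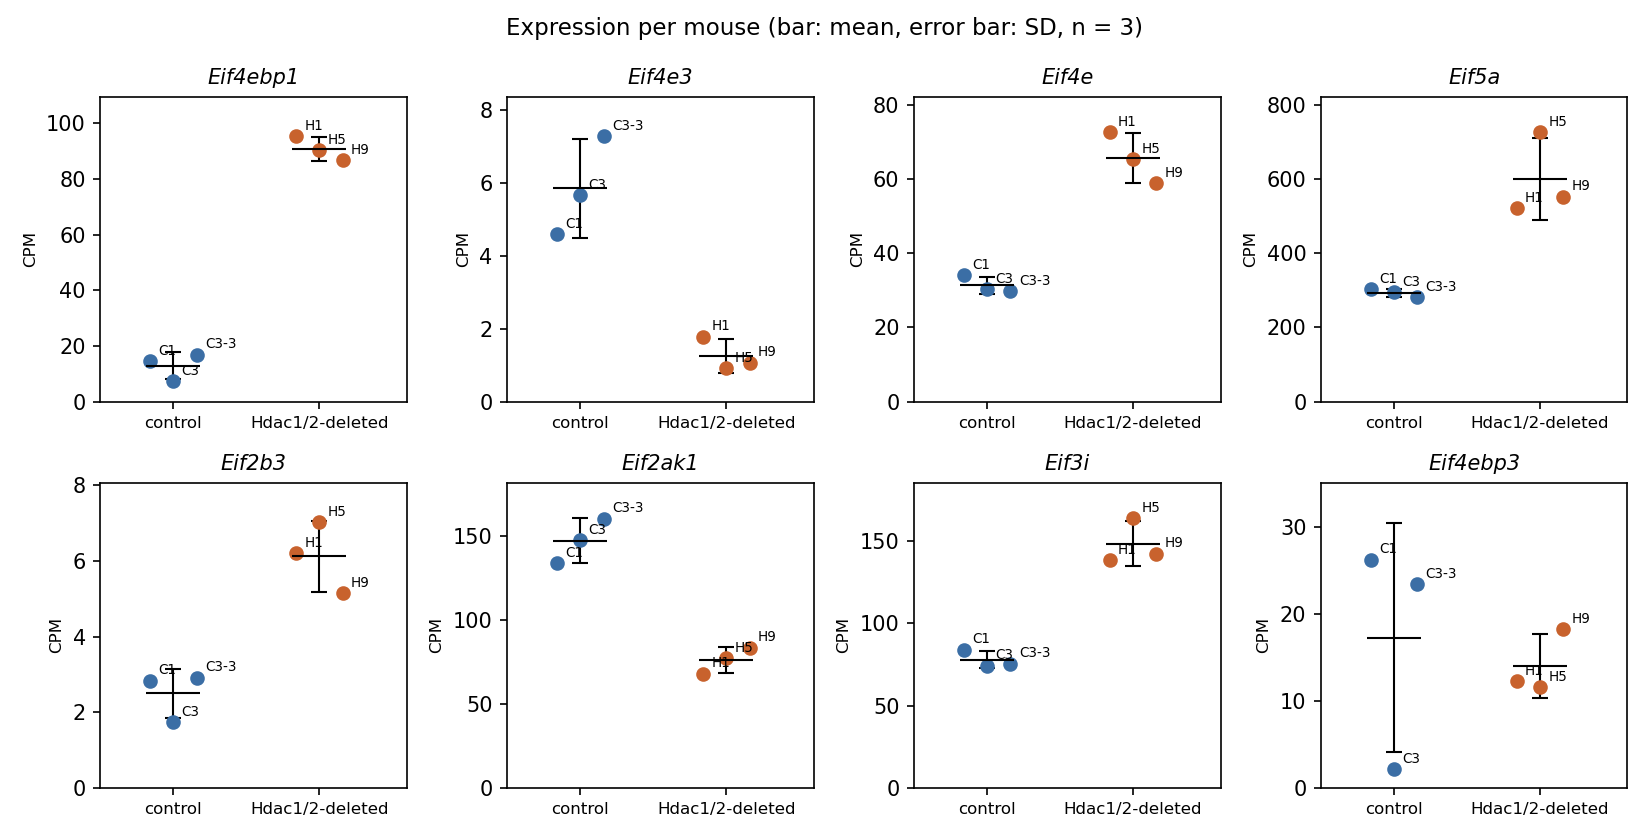
Expression in CPM on a linear axis from 0 is plotted for each mouse, with the control group in blue and the Hdac1/2-deleted group in orange, for the 5 members that changed at least 2-fold, for Eif2ak1, Eif3i and Eif4ebp3. Horizontal bars are means and error bars SD (n = 3). The groups are separate for every gene shown except Eif4ebp3, where C3 at 2.14 CPM lies below all other mice.

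Of the 10 genes grouped as eIF4F and helicase cofactors, 4 increased (40%) and 2 decreased (20%), against 20.5% and 20.3% of all tested genes. The median log2 fold change of the group was -0.05. This group also counts the relatives Eif4e2, which increased, Eif4e3, which decreased, and Eif4g2. Eif4a1, the main eIF4A helicase, was at 251, 200 and 223 CPM in control and 405, 305 and 284 CPM in Hdac1/2-deleted mice (log2 fold change 0.56 ± 0.18, edgeR adjusted p = 0.031), and Eif4g1, the main eIF4G scaffold, at 498, 480 and 460 and at 635, 680 and 666 CPM (0.46 ± 0.14, adjusted p = 0.025). Both groups of mice were apart for each of these genes. The call of Eif4a1 was lost without C3, C3-3 or H1 (adjusted p = 0.083 to 0.095) and that of Eif4g1 without C3, C3-3, H5 or H9 (0.053 to 0.097). Their relatives had negative values that did not pass the test: Eif4a2 had a log2 fold change of -0.38 (adjusted p = 0.22), Eif4g3 -0.41 (0.13) and Eif4g2 -0.35 (0.089), although for Eif4g2, which lacks the part that binds eIF4E, all Hdac1/2-deleted mice were below all control mice. Eif4b, which stimulates the helicase, decreased, from 422, 322 and 375 CPM to 260, 264 and 268 CPM, a fall by 0.50 on the log2 scale (SE 0.15, adjusted p = 0.024). The call was lost when library totals alone were used for scaling (log2 fold change -0.32, adjusted p = 0.14) and without C1, C3-3, H1, H5 or H9. Its homologue in function, Eif4h, did not pass the test (log2 fold change 0.24, adjusted p = 0.21).

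The share of each gene among its relatives was computed per mouse from counts divided by exon length, which removes the scaling between libraries. Eif4ebp1 made up 12.5%, 20.2% and 15.1% of the 4E-BP transcripts in C1, C3 and C3-3 and 59.4%, 54.7% and 49.1% in H1, H5 and H9. The mean share was 15.9% ± 3.91 in control and 54.4% ± 5.18 in Hdac1/2-deleted mice (SD, n = 3). Eif4ebp3 held the largest share in C1 and C3-3 (65.9% and 61.7%) but 17.3% in C3, and its share overlapped between the groups. That order rests on the division by length. By counts alone Eif4ebp3 held 24.3%, 3.08% and 21.5% of the family in C1, C3 and C3-3, and Eif4ebp2 was the most abundant of the 3 in each control mouse, at 62.1% to 86.3%. Eif4ebp3 also shares 501 exon bases on the same strand with AC115631.1, which the count table does not list. The exact two-sided permutation test gave p = 0.1 for Eif4ebp1, the smallest value that 3 mice against 3 allow, so that no share could pass 0.05, and p = 0.4 for Eif4ebp3.

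In the cap-binding family Eif4e3 dropped from 13.3% ± 3.33 to 1.70% ± 0.57, while Eif4e moved from 29.9% ± 2.10 to 37.1% ± 2.14, each without overlap and with an exact permutation p of 0.1. Without division by length, Eif4e3 accounted for 5.26% and 0.623% of the family's counts. Eif4e2 remained the most abundant of these genes, at 56.8% ± 2.59 in control and 61.2% ± 2.71 in Hdac1/2-deleted mice, with overlapping groups. Eif4a1 rose from 64.5% ± 1.47 to 77.7% ± 4.04 of the eIF4A helicase transcripts, and Eif4g1 from 59.1% ± 1.46 to 71.7% ± 1.74 of the eIF4G transcripts, where Eif4g2 went from 37.7% ± 2.05 to 26.2% ± 1.85. In each of these the groups did not overlap, and the exact permutation p was 0.1.

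The balance between inhibitor and cap-binding transcripts depended on which inhibitors were counted. Both ratios were chosen after the values had been seen. The first restates the larger rise of Eif4ebp1 than of Eif4e given above, so its p-value adds no separate evidence. The length-scaled ratio of Eif4ebp1 to Eif4e was 1.18, 0.664 and 1.55 in C1, C3 and C3-3 and 3.59, 3.78 and 4.03 in H1, H5 and H9 (exact permutation p = 0.1, the smallest possible). All 4E-BP genes together stood in a ratio to Eif4e of 9.44, 3.29 and 10.3 in control and 6.04, 6.91 and 8.21 in Hdac1/2-deleted mice (exact permutation p = 0.9). A higher ratio in Hdac1/2-deleted mice was thus seen for Eif4ebp1 and not for the sum. Without division by length, a setting also chosen after seeing the data, the ratio of the sum to Eif4e was 3.17, 2.29 and 3.65 in control and 2.53, 3.20 and 3.40 in Hdac1/2-deleted mice (exact permutation p = 1).

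**Figure D3:**
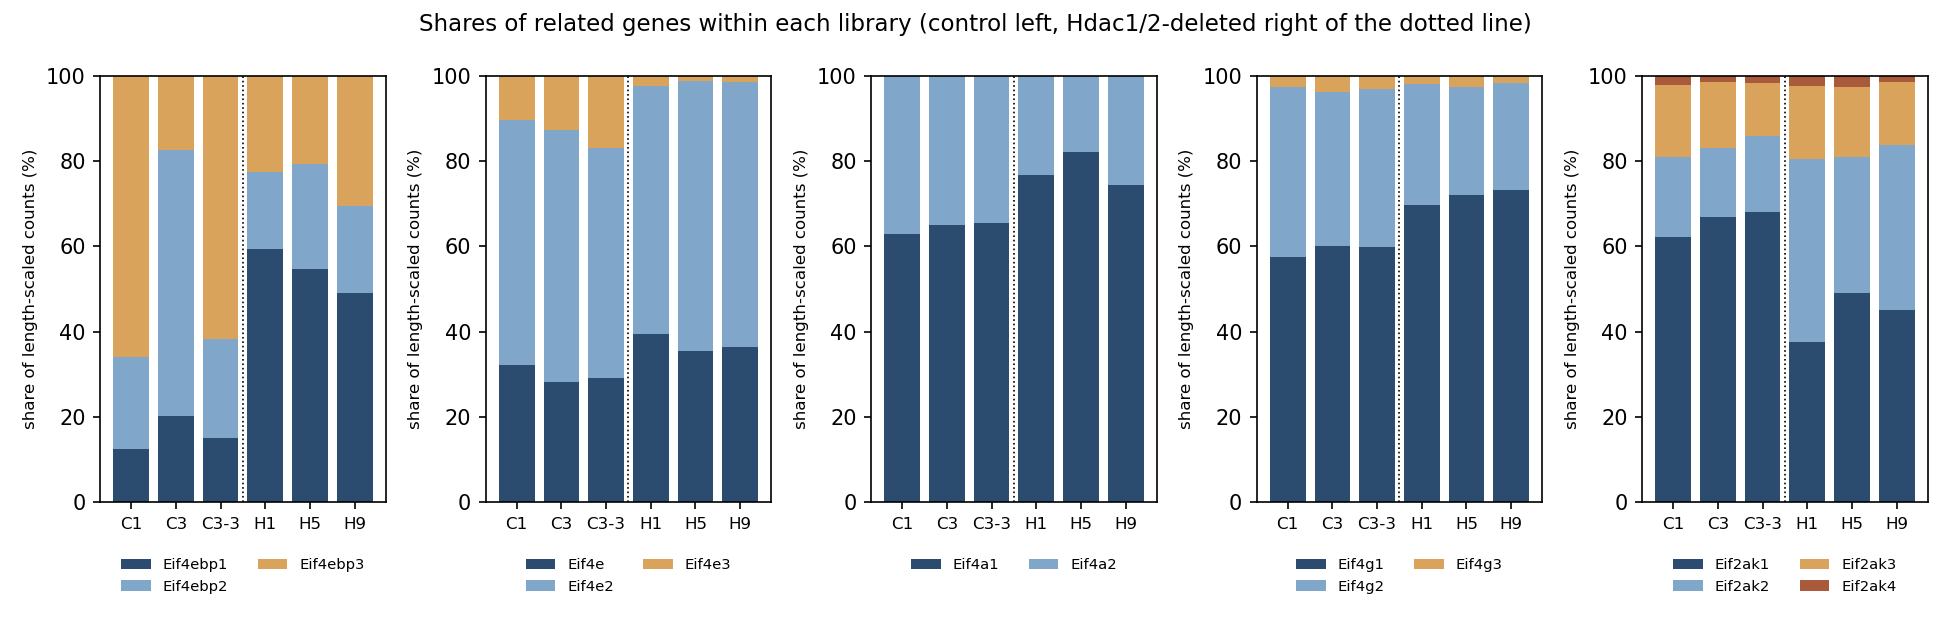
Stacked bars give, for each of the 6 mice, the percentage of the length-scaled counts of a gene family taken by each gene, with control mice left and Hdac1/2-deleted mice right of the dotted line. Eif4ebp1 takes 12.5% to 20.2% of its family in control and 49.1% to 59.4% in Hdac1/2-deleted mice, Eif4e3 nearly disappears, and Eif2ak2 gains at the side of Eif2ak1.

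The eIF2 side of initiation showed increases in the factor and in its exchange factor. Eif2s1 encodes the alpha subunit, which carries the serine that the stress kinases phosphorylate. It was at 37.0, 26.1 and 28.7 CPM in control and 63.8, 50.8 and 50.6 CPM in Hdac1/2-deleted mice, with no overlap (log2 fold change 0.85 ± 0.17, edgeR adjusted p = 0.0045). Eif2s2, the beta subunit, had a log2 fold change of 0.43 ± 0.17 that did not pass the test (adjusted p = 0.077), although the groups were apart, at 47.5 to 62.3 and 62.6 to 90.0 CPM.

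Of the 5 eIF2B genes, 3 increased (60%, against 20.5% of all tested genes) and none decreased. Their median log2 fold change was 0.47. Eif2b3 (ENSMUSG00000028683, chr4:117019402-117087306, plus strand), the gamma subunit of its catalytic part, changed most. It was measured at 2.84, 1.75 and 2.92 CPM in control and 6.21, 7.03 and 5.15 CPM in Hdac1/2-deleted mice. The log2 fold change was 1.29 ± 0.28 (2.45-fold, edgeR adjusted p = 0.0060), and the lowest Hdac1/2-deleted mouse was well above the highest control mouse. Eif2b1 and Eif2b2, a pair of regulatory subunits, increased by 0.73 ± 0.16 and 0.47 ± 0.14 on the log2 scale, the call of Eif2b2 being lost without C1, H1 or H5. The catalytic epsilon subunit gene Eif2b5 had 0.27 ± 0.13 (adjusted p = 0.12) and Eif2b4 0.05 ± 0.16 (adjusted p = 0.82). Per kilobase of exon, Eif2b3 was also the lowest of the 5, at 0.383 CPM per kb in control and 0.94 in Hdac1/2-deleted mice, against 9.42 to 18.4 and 11.5 to 25.3 CPM per kb for the others.

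Of the 4 kinases that phosphorylate eIF2 alpha, 1 increased and 1 decreased. Each is 25%, near the 20.5% and 20.3% of all tested genes. Eif2ak1 (ENSMUSG00000029613, chr5:143817788-143904251, plus strand) encodes HRI, the haem-sensing kinase, and was at 134, 148 and 160 CPM in control and 68.0, 77.3 and 83.6 CPM in Hdac1/2-deleted mice. All 3 Hdac1/2-deleted mice were below all control mice, and expression fell by 0.95 on the log2 scale (SE 0.14, 1.93-fold lower, edgeR adjusted p = 8.7e-04), just short of the 2-fold limit. Without C1 or without H9 it passed that limit. Its exons share 487 bases on the opposite strand with Aimp2, which increased by 0.73 on the log2 scale. Whether counting used the strand is not given in the sources used here, so the reads of the shared stretch cannot be assigned to either gene.

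Eif2ak2 encodes PKR, the interferon-inducible sensor of double-stranded RNA. It rose from 36.3, 32.3 and 37.4 CPM to 70.2, 45.5 and 64.9 CPM (log2 fold change 0.77 ± 0.18, edgeR adjusted p = 0.0079), again with no overlap between the groups. Neither Eif2ak3 (PERK, the endoplasmic reticulum sensor) nor Eif2ak4 (GCN2, the amino acid sensor) passed the test, with log2 fold changes of -0.25 ± 0.14 and -0.10 ± 0.27. As a share of the length-scaled kinase transcripts, Eif2ak1 went from 65.7% ± 3.15 to 43.9% ± 5.81 and Eif2ak2 from 17.5% ± 1.26 to 37.9% ± 5.55. This family was added to the shares after its values had been seen, and the exact permutation p was 0.1 for both.

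Of the 5 genes for start codon selection, 2 increased (40%, against 20.5% of all tested genes) and none decreased. Their median log2 fold change was 0.22. The near-identical genes Eif1a and Eif1ax encode eIF1A, which steadies the scanning ribosome, and both increased. Eif1a was at 29.8, 30.3 and 26.6 CPM in control and 53.7, 54.1 and 36.9 CPM in Hdac1/2-deleted mice (log2 fold change 0.74 ± 0.17, edgeR adjusted p = 0.0087). Eif1ax had a log2 fold change of 0.56 ± 0.14 (adjusted p = 0.012), a call that was lost without C3-3 (0.052). Reads can be split between such copies, so each value is less certain than the pair. Their shares of the pair overlapped between the groups, at 55.8% ± 2.43 and 58.4% ± 3.69 for Eif1a (exact permutation p = 0.3). Eif1 and Eif1b, which keep the scanning ribosome from starting at wrong codons, and Eif5, the activator of the eIF2 GTPase, did not pass the test. Their log2 fold changes were -0.27, 0.19 and 0.22, with adjusted p-values of 0.20 to 0.40. Eif1 was the most abundant member in control mice, at 164 CPM per kb, and Eif5a in Hdac1/2-deleted mice.

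The eIF3 subunits moved in 1 direction. All 14 genes had a positive log2 fold change, from 0.14 to 0.93 with a median of 0.47. Of them, 8 passed the test (57.1%, where 20.5% of all tested genes increased). The largest values belonged to the genes of the module formed by eIF3b, eIF3g and eIF3i, a grouping drawn after the values had been seen. Eif3i rose from 84.0, 74.3 and 75.5 CPM to 139, 164 and 142 CPM (log2 fold change 0.93 ± 0.13, edgeR adjusted p = 7.4e-04). Eif3b rose from 139, 144 and 127 CPM to 191, 322 and 220 CPM (0.84 ± 0.20, adjusted p = 0.0091), and Eif3g had a log2 fold change of 0.68 ± 0.14 (adjusted p = 0.0042). These ranked 1 to 3 of the 14, and the groups were separate for each.

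The 8 subunits of the eIF3 octamer that carries PCI and MPN domains had log2 fold changes from 0.14 to 0.56 with a median of 0.39, and 4 of them passed the test. They were Eif3a, Eif3c, Eif3h and Eif3l, while Eif3e, Eif3f, Eif3k and Eif3m did not pass. The calls of Eif3a and Eif3h were lost with upper-quartile scaling and without any 1 mouse other than C1. That of Eif3l was lost without C3-3, H5 or H9. Eif3f was at 194, 173 and 193 CPM in control and 160, 252 and 205 CPM in Hdac1/2-deleted mice, so that H1 lay below all control mice and H5 above them. Eif3d, which can itself bind the cap of some mRNAs, increased by 0.49 ± 0.14 on the log2 scale (edgeR adjusted p = 0.024), a call lost without C3, C3-3 or H5. The loosely held subunit eIF3j is encoded by the near-identical Eif3j1 and Eif3j2, neither of which passed the test.

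H5 was the highest Hdac1/2-deleted mouse for 10 of the 14 eIF3 genes and H1 for the other 4. Leaving out H5 left 4 of the 14 past the test and 13 positive. Without C3-3 there were also 4, and without C3 or H9 there were 5. Without H1 there were 6, and without C1 there were 9. With any 1 mouse left out, the share of all tested genes that increased was lower, at 16.7% to 19.6% instead of 20.5%. Without H5 that share was 17.6%. The part of particular mice in the numbers of subunits that passed was not tested. The direction held in at least 13 of 14 genes in every fit.

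**Figure D4:**
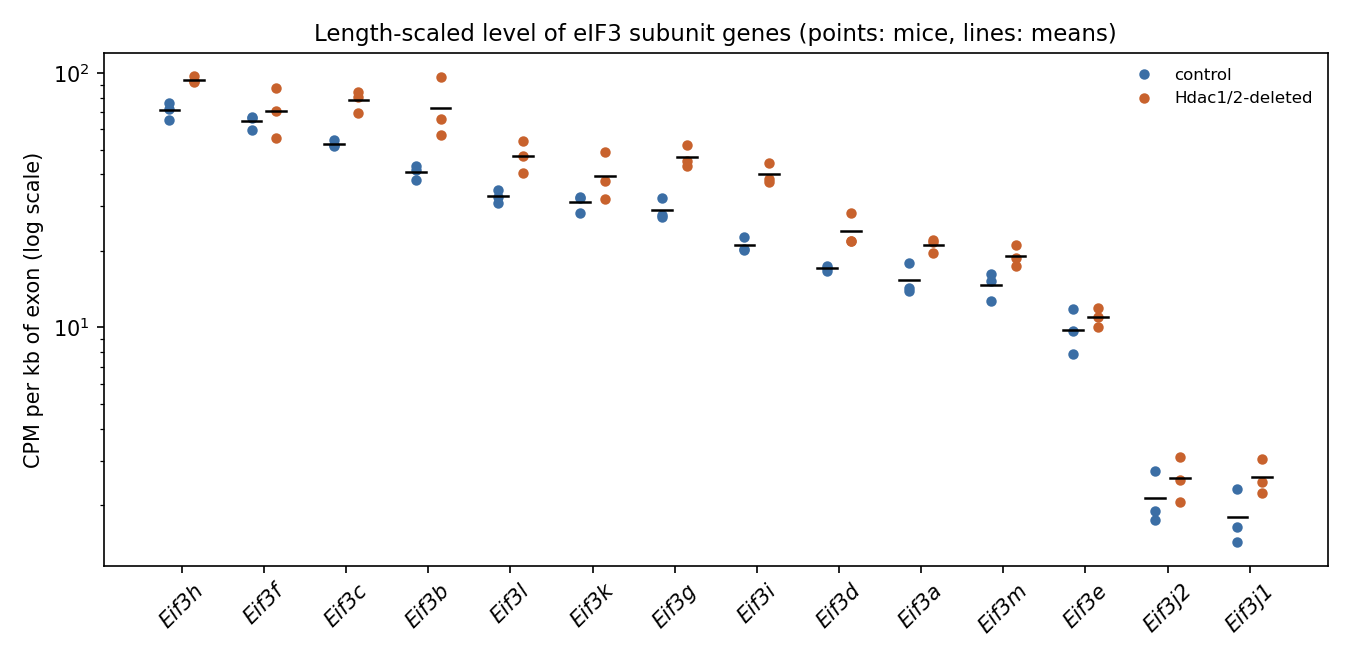
Length-scaled expression of the eIF3 genes (CPM per kb of exon, log axis) is plotted per mouse in blue for control and orange for Hdac1/2-deleted, with lines at the means, in the order of the control means. Levels run from 71.3 CPM per kb for Eif3h to 1.80 for Eif3j1 in control, and the 3 genes Eif3b, Eif3g and Eif3i show the widest gap between the groups.

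Per kilobase, the eIF3 genes covered a wide range although the complex holds its subunits in fixed proportion. In control mice Eif3h was highest at 71.3 ± 5.74 CPM per kb, followed by Eif3f at 64.5 ± 4.17, and the spreads of these neighbours overlapped. Eif3j2 and Eif3j1 were lowest, at 2.13 ± 0.53 and 1.80 ± 0.47 CPM per kb (SD, n = 3). Exon length was taken as the union of all annotated exons, with 1612 bases for Eif3h and 8731 for Eif3a, and the range depends on it. By counts alone Eif3j1 held a mean of 67.4% of its pair with Eif3j2 in control mice, whereas per kilobase it was the lower. In Hdac1/2-deleted mice Eif3h stayed highest, at 94.0 ± 2.74, while Eif3i moved from 21.1 ± 1.43 to 40.0 ± 3.70 CPM per kb.

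All 3 tested genes for subunit joining and later steps, Eif5a, Eif5b and Eif6, passed the test and increased, where 20.5% of all tested genes did. Eif5a (ENSMUSG00000078812, chr11:69916714-69921958, minus strand) encodes eIF5A, which relieves stalled ribosomes and carries the amino acid hypusine. It was at 302, 294 and 281 CPM in control and 521, 725 and 552 CPM in Hdac1/2-deleted mice. The groups were far apart, with a log2 fold change of 1.04 ± 0.17 (2.05-fold, edgeR adjusted p = 0.0013). Per kilobase this made it the most abundant member in Hdac1/2-deleted mice, at 252 ± 46.2 CPM per kb, where it had been at 123 ± 4.56 and second to Eif1 in control. The pseudogene Eif5al3-ps, a copy of this gene with 20 to 51 counts per library, had a log2 fold change of 0.99 (adjusted p = 0.10).

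The enzymes that make hypusine on eIF5A rose by a similar amount. Dhps, the first of them, was at 9.72, 11.6 and 12.3 CPM in control and 25.1, 22.8 and 20.2 CPM in Hdac1/2-deleted mice (log2 fold change 1.02 ± 0.17, edgeR adjusted p = 0.0016). Dohh, the second, was at 34.5, 41.5 and 36 CPM and at 68.5, 83.9 and 73.9 CPM (1.01 ± 0.14, adjusted p = 6.1e-04). The tissue-restricted paralog Eif5a2 was barely detected, with 14, 14 and 9 counts in control and 5, 2 and 7 counts in Hdac1/2-deleted mice, and did not enter the test. It was above the floor of 3 counts in all libraries but H5. Eif6, which keeps the large subunit apart until it is needed, and Eif5b, the GTPase of subunit joining, increased by 0.55 ± 0.16 and 0.51 ± 0.14 on the log2 scale (adjusted p = 0.024 and 0.016). The call of Eif6 was lost without C1, C3-3, H5 or H9 (adjusted p = 0.054 to 0.080) and that of Eif5b without H9 (0.063). Eif5b shares 1643 exon bases on the opposite strand with Rev1.

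The alternative initiator tRNA carriers did not pass the test. Eif2a had a log2 fold change of 0.27 (edgeR adjusted p = 0.27) and Eif2d of -0.15 (0.43). Among the genes named for a factor but with another role, Eif4a3, the helicase of the exon junction complex, increased by 0.58 ± 0.13 on the log2 scale (adjusted p = 0.0070), and Eif4enif1, the eIF4E transporter, had a value of 0.02 (0.94). Eif1ad, which shares a domain with eIF1A, was at 78.1, 109 and 75.0 CPM in control and 49.2, 53.6 and 51.9 CPM in Hdac1/2-deleted mice. It fell by 0.76 on the log2 scale (SE 0.17, adjusted p = 0.0059) with no overlap, and shares 428 exon bases on the opposite strand with Banf1. None of the 4 tested pseudogenes passed. Without the pseudogenes and these other genes, 48 members were tested, of which 24 increased and 3 decreased, the median log2 fold change being 0.44.

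The rest of the machinery around initiation was described by lists of genes. As background for each count of a list or complex, 20.5% of all tested genes increased and 20.3% decreased, and no list was tested against these shares. Of 25 tested genes of the mTORC1 pathway, which acts on the 4E-BPs, 9 increased and 4 decreased, the median log2 fold change being 0.27. Mtor itself, the kinase, rose from 40.7, 46.7 and 44.8 CPM to 93.7, 93.9 and 99.7 CPM (log2 fold change 1.12 ± 0.12). Lamtor3, a part of its lysosomal anchor, and Eef2k, the kinase that slows elongation, increased at least 2-fold as well (1.19 and 1.12). Pdcd4, an inhibitor of eIF4A, fell by 1.27 on the log2 scale, from 104, 54.4 and 64.2 CPM to 33.2, 30.1 and 28.8 CPM, and Tbc1d7, a subunit of the TSC complex that restrains mTORC1, by 1.34. Tsc1 and Tsc2, the other genes of that complex in the list, increased by 0.57 and 0.50 on the log2 scale (adjusted p = 0.014 and 0.033). The remaining decreases were those of Mlst8, a subunit of mTORC1, and Lamtor2, a part of the same anchor as Lamtor3. Their log2 fold changes were -0.61 and -0.40 (edgeR adjusted p = 0.023 and 0.048).

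Targets of the integrated stress response, the programme that follows eIF2 phosphorylation, were largely below the limits of the test: of 16 tested, 2 increased, 1 decreased, and the median log2 fold change was -0.01. Atf4, its central factor, was at 154, 155 and 144 CPM in control and 138, 87.9 and 107 CPM in Hdac1/2-deleted mice (log2 fold change -0.44, edgeR adjusted p = 0.072). Single targets changed strongly in both directions. Atf5, a related factor, rose by 2.02 ± 0.27 on the log2 scale, and Nupr1, a stress-induced chromatin protein, fell by 4.68 (SE 0.59). Phgdh, the first enzyme of serine synthesis, had 1.02 (adjusted p = 0.037) with overlapping groups.

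Among 19 cofactors of initiation without an Eif name, 4 increased and 2 decreased, the median log2 fold change being 0.08. Dhx29, a helicase that helps scanning through structured leaders, increased most (1.33 ± 0.22), and Paip2b, an inhibitor of the poly(A)-binding protein, decreased most (a fall by 1.26, SE 0.27). Of 13 elongation and termination genes, 7 increased and none decreased, with a median of 0.53, where Dhps and Dohh are included. The 2-fold limit was passed by 3 of them, Dhps, Dohh and Eef1e1 (the last with a log2 fold change of 1.09 ± 0.27), while Eef1a1 and Eef2, the major elongation factors, had log2 fold changes of 0.05 and -0.11 with adjusted p-values of 0.85 and 0.67.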

How the data were processed

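RNA-Seq of jejunal IEC from 3 control and 3 Hdac1/2-deleted mice was analysed, with 1 library per mouse. Poly(A) libraries were directional and read in pairs. The authors aligned the reads with STAR (2.4.0f1 in the submitters' processing notes) and deposited raw counts per gene. The methods name GRCm38 and the notes mm9. The counter and its strand setting are not given in the sources used here. The authors' other columns (normalized counts, log2 fold changes, mean log2 CPM, DESeq and edgeR p-values) were not used.

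Counts were filtered with filterByExpr, normalized by TMM (factors 0.892 to 1.14) and fitted with the robust quasi-likelihood model of edgeR 4.0.16 in R 4.3.3, without covariates (prior count 0.125). Benjamini-Hochberg adjustment ran over all 15618 tested genes, and calls used an adjusted p of at most 0.05, alone or with a 2-fold change. CPM are counts scaled to a common library total after TMM. Standard errors (SE) were derived from each log2 fold change and its quasi-likelihood F (the absolute change over the root of F). Exon lengths and positions came from GENCODE release 21 for mouse (GRCm38). Shares were compared by exact permutation tests in scipy 1.17.1. The fit was tested on simulated counts. Alternatives covered scaling, filters, the test (DESeq2 1.42.0, limma 3.58.1) and the omission of each mouse.

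The members and lists were chosen with earlier results of these data known. Named genes are the members called at 2-fold, the 8 other members past the adjusted p limit with the largest change, paralogs in the families compared, and list genes called at 2-fold. Further members, Atf4, Myc, Max, Mxd1, Eef1a1, Eef2, Tsc1, Tsc2, Mlst8, Lamtor2, Tsfm, Mtif2, Mtif3 and marker genes were named after their values were seen. The labels do not say whether mice shared litters, and the edgeR p-values set each group difference against the variation between these mice.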

Additional observations from a re-analysis of the deposited data

How the results depend on the processing

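Of the 29 members past the adjusted p limit, 17 stayed past it in every alternative run on them, among them the 5 called at 2-fold and the 8 others with the largest change. The other 12 (Eif1ax, Eif2b2, Eif3a, Eif3d, Eif3h, Eif3l, Eif4a1, Eif4b, Eif4ebp2, Eif4g1, Eif5b and Eif6) lost their call in at least 1 of them. Scaling by library totals alone moved the count of members at least 2-fold higher from 4 to 8 and the members' median log2 fold change from 0.43 to 0.62. The median of all genes was then 0.18, and the split of all 2-fold calls was 2463 higher and 1538 lower against 1944 and 1990 with TMM. Members at least 2-fold lower numbered 2 instead of 1 with upper-quartile scaling, and 1 to 2 when each mouse was left out, the second gene being Eif2ak1. Members past the adjusted p limit and higher numbered 16 to 25 when each mouse was left out (16 without C3-3), and 19 to 29 of the 29 calls were kept over all alternatives. With each mouse left out, 16.7% to 19.6% of all tested genes increased, against 20.5% with all mice.

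Eif4ebp3 changed sign with limma-voom (log2 fold change 0.31, adjusted p = 0.79) and ranged from -0.82 to 0.14 when each mouse was left out; C3 and C1 set these ends. The share of Eif2ak3 among the kinases, 1.14 percentage points higher in Hdac1/2-deleted mice, ranged from -0.051 (without C3-3) to 2.09 when each mouse was left out. Shares from counts without length moved the difference of Eif4ebp1 from 38.5 to 32.9 percentage points, that of Eif4e from 7.26 to 4.44 and that of Eif4e3 from -11.6 to -4.64. The cause of these moves was not tested. No paired analysis was possible because the mouse names of the groups share only 1 number. Depth limits Eif5a2 (2 to 14 counts) and the pseudogenes, and near-identical copies (Eif1a and Eif1ax, Eif3j1 and Eif3j2) may exchange reads.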

Other observations

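Mitochondria translate with factors of their own, and these were described alongside the cytosolic ones. Of 8 tested mitochondrial translation factor genes, 3 increased (37.5%, against 20.5% of all tested genes) and none decreased, the median log2 fold change being 0.48. Tufm, the mitochondrial elongation factor Tu, rose from 129, 169 and 119 CPM in C1, C3 and C3-3 to 322, 413 and 383 CPM in H1, H5 and H9 (log2 fold change 1.42 ± 0.18, SE, n = 3 mice per group). Gfm1, which moves the mitochondrial ribosome along, rose from 49.9, 51.4 and 39.0 CPM to 108, 91.0 and 96.3 CPM (1.07 ± 0.15), and Tsfm, the exchange factor of Tufm, by 0.82 ± 0.17. The initiation factors of this compartment, Mtif2 and Mtif3, had log2 fold changes of -0.26 and 0.03 with edgeR adjusted p-values of 0.29 and 0.88. All Hdac1/2-deleted mice were above all control mice for Tufm, Gfm1 and Tsfm.

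Of 7 Myc family genes and partners, which bind the E-box letters, 1 increased and 3 decreased (42.9%, against 20.3% of all tested genes), the median log2 fold change being -0.53. Myc was at 28.2, 13.8 and 16.1 CPM in control and 32.3, 28.9 and 28.7 CPM in Hdac1/2-deleted mice (log2 fold change 0.63 ± 0.26, edgeR adjusted p = 0.079). Mnt, a repressor that competes with Myc for Max, increased by 1.2 ± 0.16 on the log2 scale. Mycn fell by 2.08 (SE 0.43), from 1.80, 1.71 and 1.66 CPM to 0.594, 0.184 and 0.406 CPM, Max by 0.84 and Mxd1 by 0.64. Their part in the expression of the initiation factors was not tested.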
